A study of Homo sapiens with 40 samples.

Results

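CTCF is a zinc finger protein that binds DNA at its own motif and halts the cohesin complex there, so that its sites often mark the edges of topologically associating domains (TADs), stretches of chromosome that contact themselves more than their surroundings. H3K4me3, trimethylation of lysine 4 of histone H3, marks active and poised promoters, where CTCF is also known to bind. The regions described here are CTCF peaks of SETDB1 knockout cells, chosen by measured values, namely the positions of CTCF and H3K4me3 peaks, on 3 conditions: they lay on chromosomes 1 to 22 or X, shared not a single base with a CTCF peak of the control cells, and overlapped an H3K4me3 peak of the knockout cells by at least 1 bp. There were 4019 such new CTCF peaks at H3K4me3, 11.7% of the 34419 CTCF peaks in knockout cells and 19.03% of the 21122 CTCF peaks that were new.

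The study used A549, an established line of human lung adenocarcinoma cells. Control cells (CT) were compared with cells in which SETDB1 had been disrupted by CRISPR/Cas9 from the PX458 plasmid (KO). The enzyme SETDB1 trimethylates lysine 9 of histone H3, and the resulting H3K9me3 marks silenced chromatin. Whether the knockout line is a single clone, and what the control cells received, are not given in the sources used here. RNA-seq had 3 libraries per genotype, ChIP-seq of CTCF, H3K4me3, H3K27ac, H3K27me3 and H3K9me3 had 2 per genotype and mark, and Hi-C, which reads contacts between stretches of DNA, had 2 per genotype. All positions are on GRCh37 (hg19). The sources do not say whether libraries of a genotype came from separate cultures, so p-values measure the spread between libraries, which may be technical.

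Each mark had 1 peak list per genotype, holding positions and no scores. Shares of peaks are therefore given with a Wilson 95% interval, and differences of shares with a Newcombe 95% interval. Both cover counting error only, and neighbouring peaks are not independent. A difference is called beyond counting error where its interval leaves out 0. The KO list of CTCF held 34419 peaks against 23875 in control, and the KO list of H3K4me3 held 69459 against 56854. Whether these totals reflect the cells or the depth and threshold of peak calling was not tested. The shortest CTCF peak was 202 bp in the KO list and 182 bp in the control list.

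The targeted transcript was lower in KO cells. SETDB1 was measured at 37.5, 39.6 and 38.8 CPM (counts scaled to library size) in the 3 control libraries and at 23.4, 21.2 and 21.1 CPM in the 3 KO libraries. All KO libraries lay below all control libraries. The fitted log2 change was -0.82 with an SE of 0.060 (edgeR adjusted p = 1.7e-12). Of the epithelial genes, KRT8 lay at 2116 CPM or more and EPCAM at 3.75 CPM or more in every library. The blood cell gene CD3E was at 0 in all of them.

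New CTCF peaks took a smaller share of CTCF peaks at H3K4me3 than elsewhere, but lost CTCF peaks were rare at H3K4me3. Of the 9012 KO CTCF peaks that overlapped H3K4me3, 44.6% were new, against 67.3% of the 25407 KO CTCF peaks away from H3K4me3. In the opposite direction, 217 of the 5481 control CTCF peaks at control H3K4me3 had no KO CTCF peak, which is 3.96%, while 56.1% of the 18394 control CTCF peaks away from H3K4me3 had none. So the change at H3K4me3 was almost wholly one of added CTCF peaks in the KO list, and away from H3K4me3 CTCF peaks were both added and lost. These counts come from the overlaps that define the regions and are a description.

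The 4019 peaks lay in 3924 H3K4me3 peaks. Of these, 3832 held 1 new CTCF peak, 89 held 2 and 3 held 3. The whole CTCF peak lay inside H3K4me3 for 3141 of them, and under 50% of it did for 568. The distance from the centre of the CTCF peak to the centre of its H3K4me3 peak had a median of 303 bp (quartiles 150 and 715 bp). As a share of the distance from centre to edge of its own H3K4me3 peak, that distance had a median of 46.7%.

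The new CTCF peaks at H3K4me3 were narrow. Their median width was 273 bp, with quartiles of 236 and 327 bp and a range from 202 to 1101 bp. New CTCF peaks away from H3K4me3 had a median of 258 bp (quartiles 226 and 308 bp). CTCF peaks that overlapped a control CTCF peak, called retained here, were wider, at a median of 373 bp at H3K4me3 and 344 bp away from it. The 217 control-only peaks at H3K4me3 were also narrow for their list, with a median of 222 bp, and the 10327 control-only peaks away from it had one of 228 bp, against 258 bp for control CTCF peaks that had a KO peak. In each list, the peaks without a counterpart in the other were thus the narrower ones by median.

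**Figure D1:**
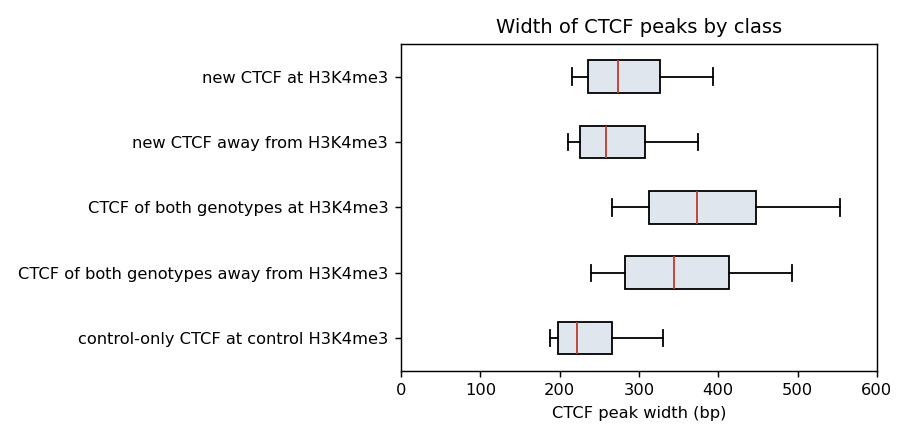
Width in bp of CTCF peaks on the x axis, for 5 classes of peaks from the KO and control lists. Boxes span the quartiles, the line is the median and whiskers reach the 10th and 90th percentiles; new CTCF peaks at H3K4me3 have a median of 273 bp and retained CTCF peaks at H3K4me3 one of 373 bp.

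The widest of the new peaks at H3K4me3 were chr9:87282492-87283592 (1101 bp), chr12:56074595-56075594 (1000 bp) and chr5:140220607-140221559 (953 bp). All 3 lay at H3K4me3 that was there in control cells. The peak on chromosome 5 also had H3K9me3 in control and none in KO cells, while the other two had none in either list.

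Few new peaks lay near the limit that the rule set on control CTCF peaks. At its other limit, the overlap with H3K4me3, 568 of the 4019 had under 50% of their width inside. The new peaks closest to a control CTCF peak lay 189 bp away at chr5:139091042-139091284, 219 bp away at chr12:108523303-108523531 and 229 bp away at chr2:69664503-69664765. Just outside the rule, the retained peaks at H3K4me3 with the least overlap shared 73, 98 and 118 bp with a control CTCF peak. Only 69 of the 4019 new peaks had a control CTCF peak within 500 bp, and the median gap to the nearest control CTCF peak was 33.7 kb. New peaks away from H3K4me3 had a median gap of 32.3 kb.

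The H3K4me3 peaks that held a new CTCF peak were wide, with a median of 1498 bp against 1204 bp for those holding a retained CTCF peak and 1077 bp for all 69459 KO H3K4me3 peaks. The share of H3K4me3 peaks holding a new CTCF peak was 4.44% among those under 1000 bp and 4.37% from 1000 to under 2000 bp. It was 8.19% from 2000 to under 4000 bp and 13.0% from 4000 bp on. A wide peak offers more bases for a CTCF peak to overlap, and the part of this in the rise was not tested.

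Exactly 3 H3K4me3 peaks held 3 new CTCF peaks each. The widest spanned 25023 bp at chr11:118776649-118801671, and the next spanned 15343 bp at chr2:227652303-227667645. The last spanned 10411 bp on chromosome 8. All 9 CTCF peaks in them lay at H3K4me3 of the control cells, and none had H3K9me3 in either genotype. Their compartments stayed A in both genotypes, with bin signals above 0 in all 4 Hi-C libraries.

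H3K4me3 was mostly present in control cells too. At 3451 of the 4019 new peaks, or 85.9% (84.8 to 86.9), a control H3K4me3 peak overlapped the CTCF peak itself. At another 67 the KO H3K4me3 peak met a control H3K4me3 peak elsewhere along its length. The remaining 501 lay in an H3K4me3 peak of KO cells that overlapped no control H3K4me3 peak, called gained H3K4me3 here.

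Retained CTCF peaks had control H3K4me3 more often, at 92.3% (91.6 to 93.0), a difference of -6.46 percentage points (-7.78 to -5.17). Taken as whole H3K4me3 peaks, 87.3% of those holding a new CTCF peak met a control H3K4me3 peak, against 67.0% of those without any CTCF peak, a difference of 20.3 points (19.2 to 21.4). Median widths were 1498 and 1058 bp, and the part of width in this difference was not tested. Counted over H3K4me3 peaks, a new CTCF peak was held by 7.06% (6.84 to 7.30) of the 48504 KO peaks that had a control peak and by 2.38% (2.18 to 2.59) of the 20955 gained peaks. Gained H3K4me3 peaks thus held a new CTCF peak less often than those of both genotypes. For retained CTCF peaks the shares were 9.30% and 1.67%. Gained H3K4me3 peaks were also narrower. Among those without CTCF the median was 702 bp, against 1375 bp for those with a control peak. The part of width in these shares was not tested.

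Where H3K4me3 was present in both genotypes, its peak was about as wide in KO as in control. The median ratio of KO to control width was 1.02 for the 3426 H3K4me3 peaks that held a new CTCF peak, 0.994 for those that held a retained CTCF peak and 1.03 for those without CTCF. Gained H3K4me3 peaks that held a new CTCF peak were short, with a median of 612 bp against 1779 bp for those with a control peak. The widest gained peaks among them were all on chromosome 19, at 4995, 4432 and 3488 bp, with new CTCF peaks at chr19:58533237-58533607, chr19:53497236-53497475 and chr19:12034452-12034783. All 3 of these CTCF peaks had H3K9me3 in control and none in KO cells.

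**Figure D2:**
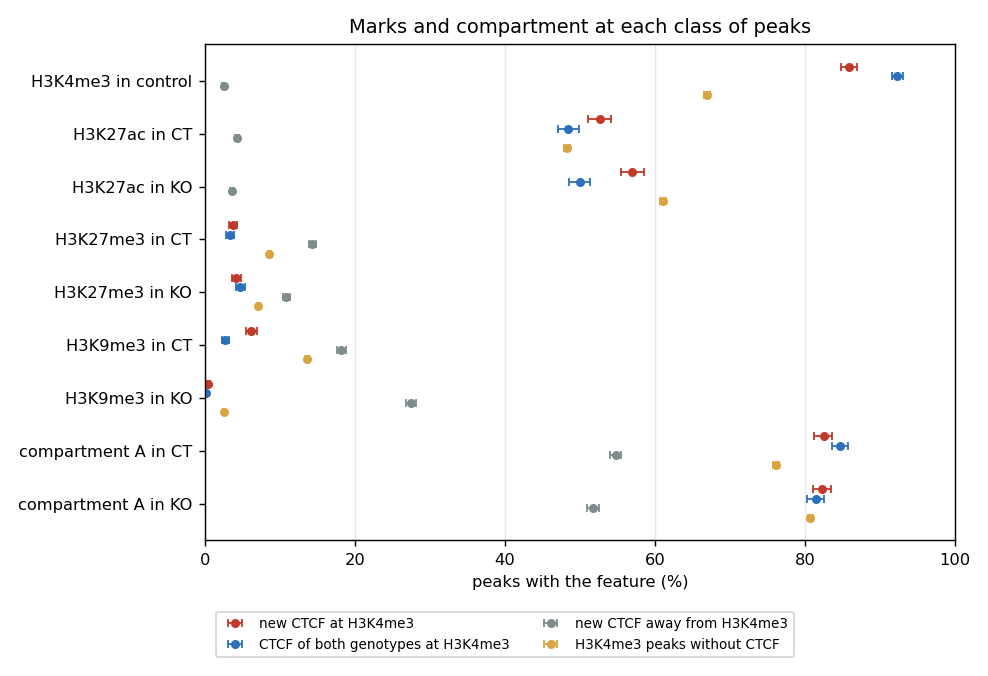
Share of peaks in % (x axis) that overlapped each mark or lay in compartment A, in control (CT) and KO lists, for 4 classes of peaks; points are shares, bars are Wilson 95% intervals, and marks were read over the CTCF peak or, for the last class, over the wider H3K4me3 peak. New CTCF peaks at H3K4me3 had control H3K4me3 at 85.9%, between retained CTCF peaks (92.3%) and H3K4me3 peaks without CTCF (67.0%).

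H3K27ac marks active promoters and enhancers. Counted by an overlap of at least 1 bp, it was found at 52.6% (51.1 to 54.2) of the new CTCF peaks at H3K4me3 in control. In KO it was found at 57.0% (55.5 to 58.5). With at least 50% of the CTCF peak inside the mark, the shares were 44.5% and 47.7%. Counted by 1 bp again, it was found in KO and not in control at 357 peaks and in control and not in KO at 182. Retained CTCF peaks at H3K4me3 had it at 48.4% in control and 50.01% in KO, and the differences of 4.20 points (2.13 to 6.27) and 6.99 points (4.92 to 9.05) were beyond counting error. H3K4me3 peaks are wider than CTCF peaks and so meet a mark more easily, and were therefore compared as whole peaks. Those holding a new CTCF peak had H3K27ac at 57.7% in control and 61.6% in KO, and those without CTCF at 48.3% and 61.1%. The difference was 9.35 points (7.75 to 10.9) in control and 0.497 points (-1.08 to 2.06) in KO, and only the first was beyond counting error. H3K4me3 peaks holding a new CTCF peak were still the wider ones, with a median of 1498 bp against 1058 bp. The part of width in these differences was not tested. H3K27ac was found at only 4.27% and 3.61% of new CTCF peaks away from H3K4me3.

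H3K27me3, the mark of Polycomb silencing, was found at 3.73% of the new CTCF peaks at H3K4me3 in control and 4.23% in KO. Retained peaks at H3K4me3 had 3.36% and 4.73%, and neither difference was beyond counting error (0.37 points, -0.40 to 1.15, in control). The mark was more frequent at new CTCF peaks away from H3K4me3, at 14.3% in control and 10.8% in KO.

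H3K9me3 was found at 249 of the new CTCF peaks at H3K4me3 in control, 6.20% (5.49 to 6.98), and at 20 in KO, 0.498% (0.322 to 0.767). Only 7 of the 249 kept it. Retained CTCF peaks at H3K4me3 had 2.76% in control and 0.200% in KO, and the difference in control was 3.43 points (2.57 to 4.32). New CTCF peaks away from H3K4me3 went the other way, from 18.2% in control to 27.5% in KO. As whole H3K4me3 peaks, those holding a new CTCF peak went from 10.3% to 0.739%, and those without CTCF from 13.6% to 2.63%. All of these classes at H3K4me3 were chosen by an H3K4me3 peak in KO cells, which bears on how often H3K9me3 is found there in KO. The 217 control-only CTCF peaks, chosen by an H3K4me3 peak in control, had H3K9me3 at 7.37% (4.59 to 11.6) in control and 12.4% (8.69 to 17.5) in KO.

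The 249 new peaks that had H3K9me3 in control differed from the other 3770 in their further marks. Their H3K4me3 was gained at 51.8% (45.6 to 57.9), against 9.87% (8.96 to 10.9) without control H3K9me3. H3K27ac was present in KO at 36.9% of them (31.2 to 43.1), against 58.3% (56.7 to 59.9). Of these with Hi-C signal, 54.6% lay in compartment A in control and 76.0% in KO.

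Compartments divide the genome into an active A and an inactive B part, read here from the sign of a Hi-C score per 100 kb bin, with positive taken as A. Signal was available in all 4 libraries for the bins of 3877 new CTCF peaks at H3K4me3, spread over 3315 bins, and missing for 142. Of the 3877 peaks, 82.5% (81.3 to 83.7) lay in A in control and 82.3% (81.1 to 83.5) in KO. These peaks lay in A far more often than the 55.2% of all 26503 bins in control and 55.1% in KO.

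Few of these bins crossed between compartments, and about as many crossed each way. From A to B went 199 peaks, 5.13%, and from B to A went 192, 4.95%, where all bins had 5.95% and 5.87%. Of the 679 peaks in B in control, 28.3% (25.02 to 31.8) were in A in KO, against 14.4% (12.1 to 17.1) of retained CTCF peaks at H3K4me3 that were in B, a difference of 13.9 points (9.64 to 18.1). H3K4me3 peaks without CTCF had 35.3%, a difference of -7.04 points (-10.4 to -3.45). New CTCF peaks away from H3K4me3 lay in A at 54.8% in control and 51.7% in KO, and 7.59% of those in B went to A.

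The signal itself was tested with limma over all bins, with 2 Hi-C libraries per genotype. The bin was higher in KO at an adjusted p under 0.05 for 778 new peaks at H3K4me3, 20.1%, and lower for 1144, 29.5%. Over all bins tested, 58.8% were called, 21.5% higher and 37.3% lower, so the share called higher was near the background and the share called lower was under it. The mean bin signal over the 3877 peaks was 0.519 and 0.520 in the control libraries and 0.522 and 0.517 in the KO libraries. The genotypes overlapped (exact permutation p = 1.000, two-sided, n = 2 per genotype, where the smallest possible p is 0.3333).

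That average joined peaks at gained H3K4me3 and at H3K4me3 of both genotypes, whose differences between genotypes had opposite signs. Over the 477 peaks with Hi-C signal at gained H3K4me3, the mean signal was 0.0714 and 0.0717 in the control libraries and 0.291 and 0.291 in the KO libraries. Over the 3400 at H3K4me3 of both genotypes it was 0.582 and 0.583 in control and 0.554 and 0.548 in KO. The KO libraries thus lay above the control libraries in the first set and below them in the second (exact permutation p = 0.3333 in each, two-sided, n = 2 per genotype, the smallest this design allows). All bins together also had a lower mean in KO, at 0.0952 and 0.0984 in control and 0.0597 and 0.0584 in KO, and retained CTCF peaks at H3K4me3 had a difference of -0.043 against -0.031 at the 3400 peaks. The change in that second set thus had the same direction as in all bins and at retained CTCF peaks. The change at gained H3K4me3 had the opposite direction.

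At gained H3K4me3, compartment A held 54.1% (49.6 to 58.5) of the new CTCF peaks in control and 67.3% (63.0 to 71.4) in KO. From B to A went 82 of 477, 17.2% (14.1 to 20.8), against 3.24% at H3K4me3 of both genotypes, a difference of 14.0 points (10.8 to 17.6). More of the first set began in B, 219 of 477 against 460 of 3400. Of those in B in control, 37.4% and 23.9% went to A, a difference of 13.5 points (6.14 to 21.1). Among all 477 peaks, the bin was called higher at 41.5% (37.2 to 46.0) and lower at 19.7%. At H3K4me3 of both genotypes the shares were 17.1% and 30.9%, and over all bins tested 21.5% and 37.3%. H3K9me3 was present in control at 129 of the 501, 25.7% (22.1 to 29.7), and in KO at 6.

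Gained H3K4me3 peaks without CTCF showed a pattern that was alike in part. Of these, 18.4% went from B to A, a difference from those with a new CTCF peak of -1.24 points (-4.41 to 2.45), which was not beyond counting error. Their bins were called higher at 46.2%, from which those with a new CTCF peak differed by -4.66 points (-9.06 to -0.137). Compartment A in KO held 72.0% of them, and the difference was -4.72 points (-9.10 to -0.615). Both differences were beyond counting error. H3K9me3 was present in control at 20.1% of the peaks without CTCF. Compared as whole peaks, the 498 gained H3K4me3 peaks with a new CTCF peak had control H3K9me3 at 27.3%, more often by 7.21 points (3.44 to 11.3). They had KO H3K27ac less often, at 24.3% against 33.7%, a difference of -9.37 points (-13.0 to -5.36). Their median width was 612 bp, against 702 bp without CTCF. Counted over CTCF peaks, the share at gained H3K4me3 with control H3K9me3 went from 25.75% to 15.5% without chromosomes 5 and 19. The share in bins called higher was then 35.4%. Gained H3K4me3 peaks without CTCF were not recomputed without these chromosomes. Whether the difference of 7.21 points holds there was therefore not tested.

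**Figure D3:**
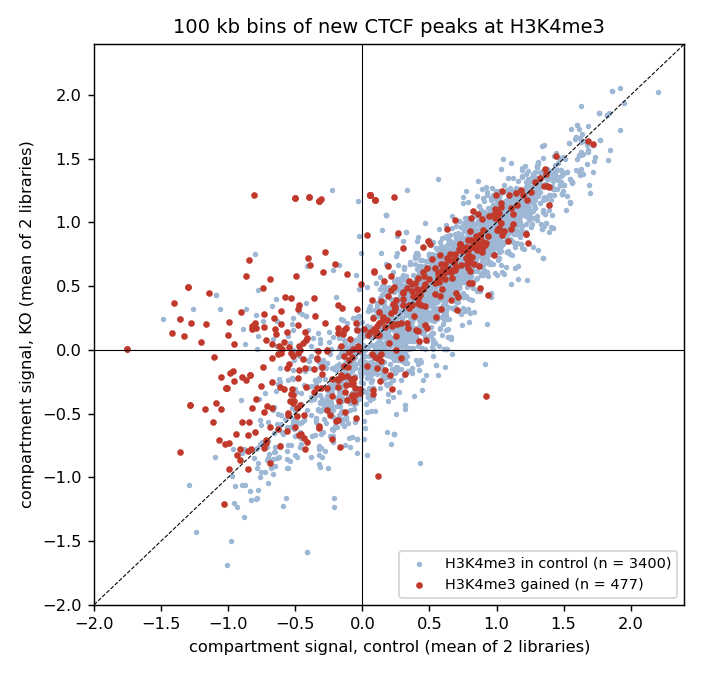
Compartment signal of the 100 kb bin of each new CTCF peak at H3K4me3 in control (x axis) and KO (y axis), each the mean of 2 Hi-C libraries on the authors' score; red points lie at gained H3K4me3 (n = 477) and blue points at H3K4me3 of both genotypes (n = 3400). Points above the dashed line of equal signal had a higher signal in KO, and the area above 0 in KO and below 0 in control holds the 192 peaks whose bins went from B to A.

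The bins of 155 new CTCF peaks at H3K4me3, 135 bins in all, were negative in both control libraries and positive in both KO libraries. The peak whose bin rose most was chr4:236082-236363, 282 bp wide. Its bin had a signal of -0.82 and -0.80 in the control libraries and 1.28 and 1.16 in the KO libraries, a difference of 2.03 (limma adjusted p = 3.3e-09, n = 2 per genotype). It lay in a gained H3K4me3 peak of 662 bp, had H3K9me3 in control and none in KO, and its centre was 3.78 kb from a TAD edge in KO and 176.2 kb from the nearest in control.

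The next largest rises were at peaks on chromosome 19 already named for their wide gained H3K4me3. At chr19:58533237-58533607 the bin signal went from -1.32 and -1.27 in control to 0.486 and 0.505 in KO (limma adjusted p = 3.3e-09). The nearest TAD edge was 13.4 kb away in KO and 146.6 kb away in control. At chr19:53497236-53497475 the signal went from -1.44 and -1.37 to 0.384 and 0.351 (limma adjusted p = 3.6e-09). Both gained H3K27ac as well as H3K4me3 and no longer had H3K9me3 in the KO list. Chromosome 19 is known for its clusters of KRAB zinc finger genes, where H3K9me3 is common, but genes near the peaks were not assigned here.

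TAD edges lay on a 20 kb grid, with 7205 edges in KO and 7011 in control. The median distance from a new CTCF peak at H3K4me3 to a KO edge was 47.7 kb. Within 20 kb lay 29.5% (28.1 to 30.9) of these peaks, 1184 in number. Measured to control edges, the values were 50.8 kb and 28.5% (27.2 to 30.0).

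These distances lay between those of the other classes. Retained CTCF peaks at H3K4me3 lay within 20 kb of a KO edge at 35.2%, with a median of 35.6 kb, and new peaks differed from them by -5.79 points (-7.72 to -3.85). For new CTCF peaks away from H3K4me3 the values were 16.5% and a median of 93.1 kb, a difference of 13.0 points (11.5 to 14.5). H3K4me3 peaks without CTCF had 12.4% and 93.9 kb, a difference of 17.1 points (15.6 to 18.5). Retained CTCF peaks away from H3K4me3 had 30.5% (29.5 to 31.5) and 42.3 kb. New CTCF peaks at H3K4me3 thus lay farther from edges than retained ones at H3K4me3, and nearer than either new CTCF or H3K4me3 alone.

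The same order held in each class of H3K4me3 peak width. Among H3K4me3 peaks under 1000 bp, 31.2% of those with a new CTCF peak lay within 20 kb of a KO edge, against 37.5% of those with retained CTCF only and 10.5% of those without CTCF. From 1000 to under 2000 bp the shares were 26.98%, 31.9% and 10.6%, and from 2000 to under 4000 bp they were 28.4%, 34.8% and 18.2%. From 4000 bp on they were 29.9%, 34.9% and 20.9%. The intervals of the first and second of these shares overlapped from 4000 bp on and from 1000 to under 2000 bp.

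**Figure D4:**
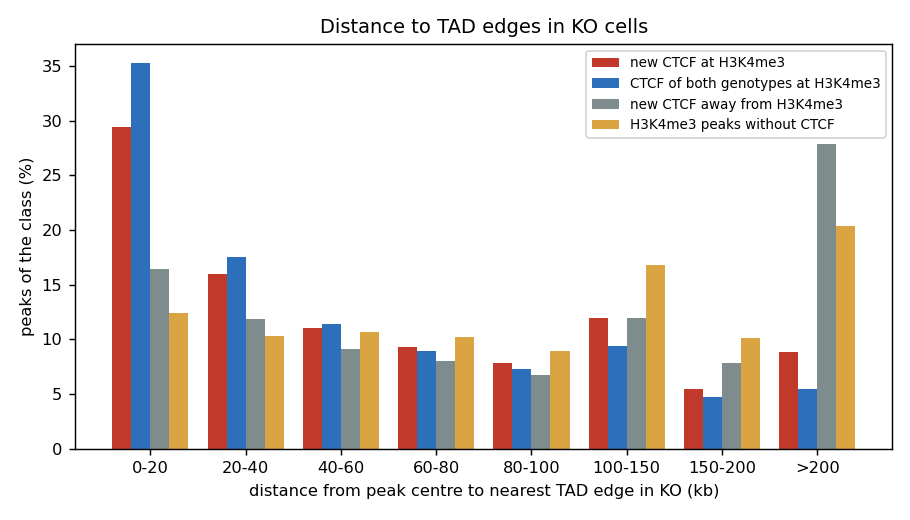
Share of peaks in % (y axis) by distance in kb from the peak's centre to the nearest TAD edge in KO cells (x axis, classes of unequal width), for 4 classes of peaks. Within 20 kb lay 29.5% of new CTCF peaks at H3K4me3, 35.2% of retained ones, 16.5% of new CTCF peaks away from H3K4me3 and 12.4% of H3K4me3 peaks without CTCF; over 200 kb away lay 8.88% and 27.9% of the new peaks at and away from H3K4me3.

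Counted from the edges, 1091 of the 7205 KO edges, 15.1% (14.3 to 16.0), had a new CTCF peak at H3K4me3 within 20 kb. At 577 of all KO edges, 8.01%, there was such a peak and no control CTCF peak within that distance, and at 433, 6.01%, these were the only CTCF peaks of any kind. Edges found in KO and with no control edge within 20 kb numbered 536. Of these, 65 (12.1%, 9.63 to 15.2) had a new CTCF peak at H3K4me3 nearby, against 15.4% of the 6669 edges of both genotypes, a difference of -3.26 points (-5.91 to -0.106). Retained CTCF peaks stood within 20 kb of 20.5% of KO-only edges and 43.2% of edges of both genotypes.

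New CTCF peaks at gained H3K4me3 differed from those at H3K4me3 of both genotypes in which edges they were near. Within 20 kb of a KO edge lay 27.7% (24.0 to 31.8) of the first and 29.7% of the second, a difference of -1.96 points (-6.00 to 2.38). Within 20 kb of a control edge lay 22.4% (18.9 to 26.2) and 29.4%, a difference of -7.07 points (-10.8 to -2.94). Within 20 kb of a KO-only edge lay 31 of 501, 6.19% (4.39 to 8.65), against 42 of 3518, 1.19%, a difference of 4.99 points (3.15 to 7.47). Gained H3K4me3 peaks without CTCF were near KO-only edges at 1.48%, which differed from the 6.19% by 4.71 points (2.90 to 7.17). Without chromosomes 5 and 19, left out after seeing the data, the 6.19% became 4.74%. Gained H3K4me3 peaks without CTCF were not recomputed there. Edges of TADs and the compartment score both come from the same Hi-C libraries.

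The new CTCF peaks nearest a KO-only edge were chr5:140578939-140579232 at 0.915 kb, chrX:118918882-118919175 at 0.972 kb and chr17:13241118-13241451 at 1.28 kb. The nearest control edges were 119.1, 101.0 and 238.7 kb away. The chromosome 5 peak had H3K9me3 and H3K27me3 in control and neither in KO, and its bin signal went from -0.34 and -0.31 to 1.23 and 1.11 (limma adjusted p = 9.3e-09, n = 2 per genotype). At the chromosome X peak the bin fell from 1.57 and 1.52 to 1.19 and 1.11 (limma adjusted p = 2.9e-05). At the chromosome 17 peak it was -0.70 and -0.80 in control and -0.73 and -0.71 in KO (limma adjusted p = 0.59), so the 3 peaks shared a new edge and no direction of the compartment signal.

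New CTCF peaks at H3K4me3 were most dense on chromosome 19, with 3.69 per Mb, and least dense on chromosome 13, with 0.773 per Mb. The median chromosome had 1.34 per Mb. New CTCF peaks away from H3K4me3 ranged from 1.66 per Mb on chromosome 21 to 10.8 per Mb on chromosome 19. As a share of all CTCF peaks at H3K4me3, the new ones ranged from 32.9% on chromosome 17 to 69.0% on chromosome 4. Chromosome 19 also held the largest share at gained H3K4me3, 56 of its 218 new peaks or 25.7%, and 59 of them had H3K9me3 in control.

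**Figure D5:**
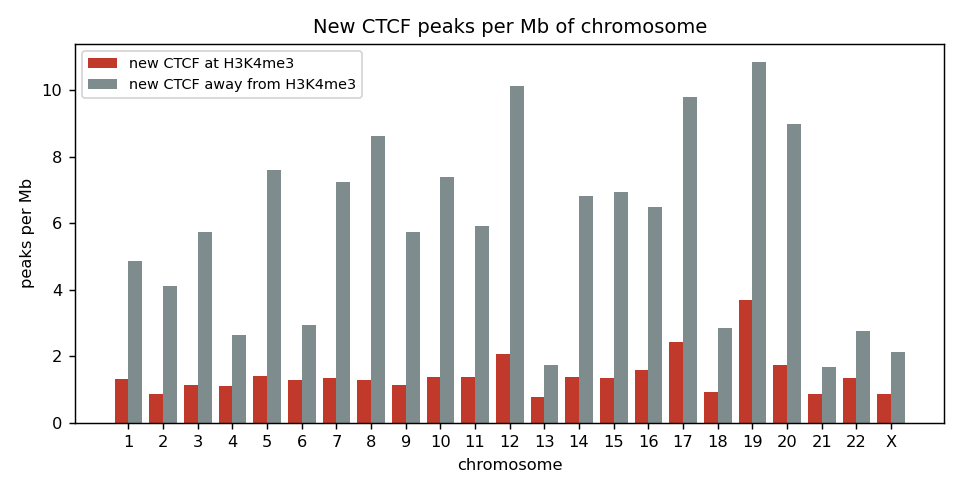
New CTCF peaks per Mb of chromosome length (y axis) on each chromosome (x axis), at H3K4me3 in red and away from it in grey, as counts from the 2 CTCF peak lists with no replicate error. Chromosome 19 has the most of both, 3.69 and 10.8 per Mb.

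The densest 100 kb bins were all on chromosome 5 and were looked for after seeing the data. The bin chr5:140700001-140800000 held 11 new CTCF peaks at H3K4me3, and chr5:140500001-140600000 and chr5:140200001-140300000 held 9 each. Together with neighbouring bins that held any, they formed a run at chr5:139900001-140900000 with 40 new CTCF peaks at H3K4me3, in a stretch of 1000 kb. The run held 10 retained CTCF peaks at H3K4me3 and 3 away from it. The clustered protocadherin genes, which encode cell adhesion proteins and whose promoters are known CTCF sites, lie in this part of chromosome 5.

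Of the 40 peaks in the run, 37 had H3K9me3 in control and 0 in KO. H3K4me3 was present in control at 25 and gained at 15. H3K27me3 went from 15 to 4 of the peaks and H3K27ac from 8 to 13. These 37 are a large part of the 51 new peaks at H3K4me3 with control H3K9me3 on the whole of chromosome 5.

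All 10 bins of the run were called higher in KO by limma, with differences from 0.20 to 1.59. The mean signal of the run was 0.239 and 0.235 in the control libraries and 1.19 and 1.20 in the KO libraries. Within 20 kb of a KO edge lay 9 of the 40 peaks, 8 of them near a KO-only edge, and within 20 kb of a control edge lay 1. In RNA-seq, 47 clustered protocadherin genes could be tested, and 45 were higher and 1 lower in KO by edgeR at an adjusted p under 0.05, with a median log2 fold change of 2.46, against 0.00 over all genes tested. Of all 17767 genes, 62.8% were called, 32.8% higher and 30.0% lower. Many of these genes share exons, so reads may not be told apart between them.

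Transcripts of the proteins that act at such sites were read from lists of genes. CTCF itself was at 89.5, 86.6 and 85.0 CPM in the control libraries and 95.8, 96.8 and 94.4 CPM in the KO libraries. All KO libraries lay above all control libraries, with a log2 change of 0.14 ± 0.045 (SE; edgeR adjusted p = 0.0087, n = 3 per genotype). Without the third control library the adjusted p was 0.060 in edgeR. CTCFL, the germline relative of CTCF that can bind the same motif, had 1, 1 and 0 counts in the control libraries and 0 in every KO library and was not tested.

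Of 17 genes tested for CTCF and the cohesin complex, 3 were higher and 10 lower in KO, with a median log2 fold change of -0.20. Over all 17767 genes tested, 62.8% were called, 32.8% higher and 30.0% lower. SMC3, a core subunit of cohesin, was at 177.5, 164.5 and 163.5 CPM in control and 97.3, 94.5 and 96.4 CPM in KO libraries, a log2 change of -0.81 ± 0.045 (SE; edgeR adjusted p = 3.7e-15). ESCO2 and CDCA5, which establish and keep sister chromatid cohesion, fell by 0.60 and 0.49 on the log2 scale, and HDAC8, the deacetylase of SMC3, fell by 0.47 (edgeR adjusted p = 1.1e-11, 2.6e-09 and 3.1e-05). STAG3, the meiotic cohesin subunit, rose by 0.41 (edgeR adjusted p = 1.4e-04). RNA levels do not give the amount of protein on chromatin.

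Of the 18 genes for writing and erasing H3K4 methylation, all tested, 9 were higher and 5 lower, with a median log2 fold change of 0.11. The shares over all genes tested were 32.8% higher and 30.0% lower. SETD1B, an H3K4 methyltransferase, rose from 19.1, 23.3 and 22.5 CPM to 34.9, 39.6 and 34.0 CPM, a log2 change of 0.76 ± 0.073 (SE; edgeR adjusted p = 3.2e-09). The H3K4 demethylases KDM5B and KDM5A rose by 0.42 and 0.31, while the demethylase KDM1A and WDR5, a shared subunit of the methyltransferase complexes, fell by 0.32 each on the log2 scale (edgeR adjusted p = 1.9e-08, 3.3e-07, 3.1e-07 and 1.3e-05). Writers and erasers were thus found among both the higher and the lower genes.

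Of 7 zinc finger and chromatin proteins known from promoter CTCF sites, 4 were higher and 0 lower in edgeR. Among all genes tested, 32.8% were higher and 30.0% lower. ZBTB7A went from 18.4, 19.5 and 18.8 CPM to 31.7, 37.5 and 36.0 CPM, a log2 change of 0.91 ± 0.067 (SE; edgeR adjusted p = 2.2e-12). MAZ and VEZF1 rose by 0.48 and 0.18 (edgeR adjusted p = 9.3e-06 and 0.0011). PATZ1 had a log2 fold change of 0.15 and an edgeR adjusted p of 0.020, which was between 0.051 and 0.066 without the first or second control library or the third KO library.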

How the data were processed

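The peak lists and TAD lists were deposited as positions (other than counts or scores), 1 per genotype. The submitters' processing notes name STAR 2.6.1c, Bowtie2 2.2.3, SAMtools 1.5, Picard, MACS2 and edgeR 3.30.0 and the build hg19, without saying which made which file. How peaks were thresholded, and whether libraries were pooled, is not given in the sources used here. Per the labels, histone chromatin was cut with MNase and CTCF chromatin by sonication, and DpnII was the enzyme of the in situ Hi-C. The compartment table deposited by the authors holds a signed score per 100 kb bin and library, and the gene table deposited by the authors holds whole-number counts, from stranded total RNA libraries. The library totals were 18065062 to 48364919 counts. In the KO libraries of H3K4me3 the title gives the mark short of a digit. They were grouped by title and description.

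The regions, classes and gene lists were chosen with earlier results of these data known. Overlaps were found with numpy 2.4.6 and pandas 2.3.3 in Python 3.11.15, with at least 1 bp shared. A bin was in A where the mean of its genotype's libraries was above 0. A peak took the bin of its centre, and TAD distances were taken from that centre. Of 225 differences of shares computed, none was adjusted for their number. Bins were tested with limma 3.58.1 and genes with edgeR 4.0.16 (TMM scaling, filterByExpr, quasi-likelihood test) in R 4.3.3, with Benjamini-Hochberg adjustment over all bins or genes and a threshold of 0.05. On simulated data, limma recovered 94.2% of 2000 changed bins among 26503, with 5.33% of calls false, and edgeR recovered 92.3% of 194 changed genes among 17368, with 2.72% false. The simulations drew bins and genes independently and changed few of them, by a fixed size. In the data 58.8% of bins and 62.8% of genes were called, so these rates need not hold there.

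Regions were named by rule: the 3 largest rises of bin signal among bins that went from B to A in all 4 libraries, the 3 H3K4me3 peaks holding most new CTCF peaks, the 3 widest, the 3 in the widest gained H3K4me3, the 3 nearest a KO-only edge, and the 3 on each side of the overlap rule. Genes were SETDB1, CTCF, CTCFL and, among the 5 largest changes of each list, those with an adjusted p under 0.05. No hg19 sequence or gene annotation was used here, so no sequence is printed and no peak is assigned to a gene. Input libraries were not used here. Unmapped columns of per-sample values numbered 0.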

Additional observations from a re-analysis of the deposited data

How the results depend on the processing

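Of 367 values recomputed under alternatives, 335 were classed as the same. That class also took in values outside the interval of the main value. It holds the 14.9% of new peaks in bins called higher without the first KO Hi-C library, against 20.1% (18.8 to 21.4). With at least 50% of the CTCF peak inside H3K4me3, shares of new peaks were 89.6% for control H3K4me3, 83.8% and 83.7% for compartment A in control and KO, 56.5% and 61.6% for H3K27ac and 3.56% for H3K27me3 in KO. The same rule gave, at gained H3K4me3, 30.6% with control H3K9me3, 20.9% from B to A and 46.5% in bins called higher; without chromosomes 5 and 19 the first and last were 15.5% and 35.4% (both settings chosen after seeing the data). Among the 1628 new peaks of at least 290 bp, the median KO CTCF width, the median width was 342.0 bp, control H3K4me3 was at 86.9%, H3K27ac in KO at 55.0%, and the difference from retained peaks in compartment A in KO turned from 0.836 points (-0.795 to 2.45) to -1.35 points (-3.66 to 0.869), both intervals holding 0. Counting control H3K4me3 anywhere in the H3K4me3 peak gave 87.5%. With at least 50% of the CTCF peak inside the mark, H3K27ac was at 44.5% and 47.7%, H3K27me3 at 2.91% and 2.96% and control H3K9me3 at 5.45%. Without the bins under the 10th percentile of absolute signal, compartment A held 87.1% in control and 88.3% in KO. Within 10 and 40 kb of a KO edge lay 16.8% and 45.5%. For each of these the cause was not tested.

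Leaving out each Hi-C library gave 14.9% to 20.5% of new peaks in bins called higher, against 17.2% to 21.6% of all bins, and 22.2% to 28.9% in bins called lower, against 30.2% to 36.6%. With each library's scores scaled, 16.2% were higher, against 20.3% of all bins, and 35.2% lower, against 38.5%. The numbers of libraries did not pair them: deviations of libraries with the same number correlated at 0.111, 0.064 and 0.047 in RNA-seq and -0.0026 in Hi-C. A replicate block gave 20.8% of new peaks in bins called higher and 30.6% lower, against 22.1% and 38.1% of all bins, and 3 higher and 10 lower genes of CTCF and cohesin, 11 and 5 of H3K4 methylation, and 4 and 0 of the promoter partners. The genes called higher for H3K4 methylation numbered 6 under upper quartile scaling. PATZ1 had an adjusted p of 0.068 under that scaling and 0.056 in DESeq2. Peak lists without scores or replicates allow no test of how firmly a single CTCF peak is new.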
